A study of Mus musculus with 8 samples.

Results

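The genes described here encode the enzymes and the chaperone that modify, fold and trim newly made procollagen chains: the prolyl 4-hydroxylase alpha subunits *P4ha1*, *P4ha2* and *P4ha3*, the lysyl hydroxylases *Plod1*, *Plod2* and *Plod3*, the collagen chaperone *Serpinh1*, the C-propeptidase *Bmp1*, and the N-propeptidases *Adamts2* and *Adamts3*. These 10 genes were taken by symbol from a table of 54658 genes, with earlier results of these data known. All 10 passed the filter on low counts. RNA-Seq was performed on primary murine articular chondrocytes in culture, of which 4 samples received IL-1β, an inflammatory cytokine that drives cartilage breakdown, and 4 received the vehicle. The cells of both groups came from wild-type mice aged 3 weeks, whose femoral head cartilage was digested in high-glucose medium. Treatment was at 1 ng/mL and lasted 24 h. Neither the labels nor the methods say whether the 4 samples of a group came from separate mice or cultures, so the p-values measure the spread between these samples, which may be technical.

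Collagen chains are modified while they enter the endoplasmic reticulum. Prolyl 4-hydroxylase, made of alpha subunits and the beta subunit encoded by *P4hb*, adds the hydroxyl groups that keep the triple helix stable at body temperature, and lysyl hydroxylases prepare lysines for glycosylation and for the later crosslinks. SERPINH1, also called HSP47, binds the folded helix on its way out of the endoplasmic reticulum. Outside the cell, ADAMTS2 and its relatives remove the N-propeptides and BMP1 the C-propeptides, after which fibrils can form. In articular cartilage the main substrate of this line of enzymes is type II procollagen, the product of *Col2a1*.

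Total counts were 10992355 to 17104351 with IL-1β and 13970959 to 17456063 with vehicle, and no sample stood apart from its group in depth. All 9 chondrocyte markers examined (among them *Col2a1*, *Acan* and *Sox9*) were expressed, and all 9 were lower after IL-1β, with a summed level of 3703 to 4073 CPM (the counts of a gene scaled to a common library size) in the IL-1β samples and 14737 to 15313 CPM in the vehicle samples. The 7 macrophage and leukocyte markers summed to 29.9 to 33.5 CPM with IL-1β, against to 14.8 to 16.8 CPM in the vehicle samples. Of these 7, *Cd14* (3.85 ± 0.395 CPM with vehicle, 13.99 ± 0.428 CPM with IL-1β) and *Cd68* (9.48 ± 0.730 and 14.99 ± 1.56 CPM) were higher after IL-1β, *Lyz2* (1.86 ± 0.312 and 1.24 ± 0.226 CPM) was lower, and *Csf1r*, *Ptprc*, *Adgre1* and *Itgam* were too low to be tested, with at most 1.26, 0.433, 0.213 and 0.178 CPM in any sample (SD, n = 4). The 5 osteoblast markers summed to 50.0 to 58.3 CPM with IL-1β, against 125 to 135 CPM in the vehicle samples, and the 5 synovial and fibroblast markers to 68.7 to 71.7 CPM and 33.6 to 35.6 CPM. The latter sum rests on *Pdpn* (5.83 ± 0.700 CPM with vehicle, 27.97 ± 1.10 CPM with IL-1β) and *Pdgfra* (27.6 ± 0.847 and 41.2 ± 0.807 CPM), both higher after IL-1β. *Thy1*, *Dpp4* and *Pi16* were too low to be tested, with at most 0.636, 0.285 and 0.526 CPM in any sample. The 5 endothelial and 4 red blood cell markers were at or near 0, summing to at most 1.25 CPM and 0.270 CPM in any sample. These marker levels moved with the treatment, as the genes below did, and their part in the results was not tested. In such bulk samples, fewer cells of a type and less RNA per cell cannot be told apart.

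IL-1β left none of the 10 genes changed by more than 2-fold, but shifted most of them by a smaller amount. At a Benjamini-Hochberg adjusted p-value under 0.05 from edgeR's quasi-likelihood test, 5 genes fell (*Serpinh1*, *Adamts2*, *Plod2*, *Plod3* and *P4ha1*), 2 rose (*Plod1* and *P4ha2*), and 3 did not pass (*P4ha3*, *Bmp1* and *Adamts3*). Over all 14404 genes tested, 40.2% passed, 20.4% as higher and 19.8% as lower. In the 7 genes that passed, all 4 IL-1β samples lay on one side of all 4 vehicle samples, which was so for 36.8% of all genes tested (18.7% with IL-1β above and 18.2% with IL-1β below). The log2 fold changes of the 10 genes ran from -0.64 to 0.43 with a median of -0.13, against a median of -0.0012 over all genes tested. With a log2 fold change beyond 1 added, the 2-fold threshold in the description of the study's test (its lists of genes were drawn with a higher one), 0 of the 10 genes were differentially expressed, against 5.21% of all genes tested (2.86% higher and 2.35% lower). At an unadjusted p under 0.05 by edgeR the same 7 of 10 genes were called, as were 46.6% of all genes tested, and at an adjusted p under 0.05 by DESeq2 again the same 7, as were 34.3% of all genes.

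**Figure D1:**
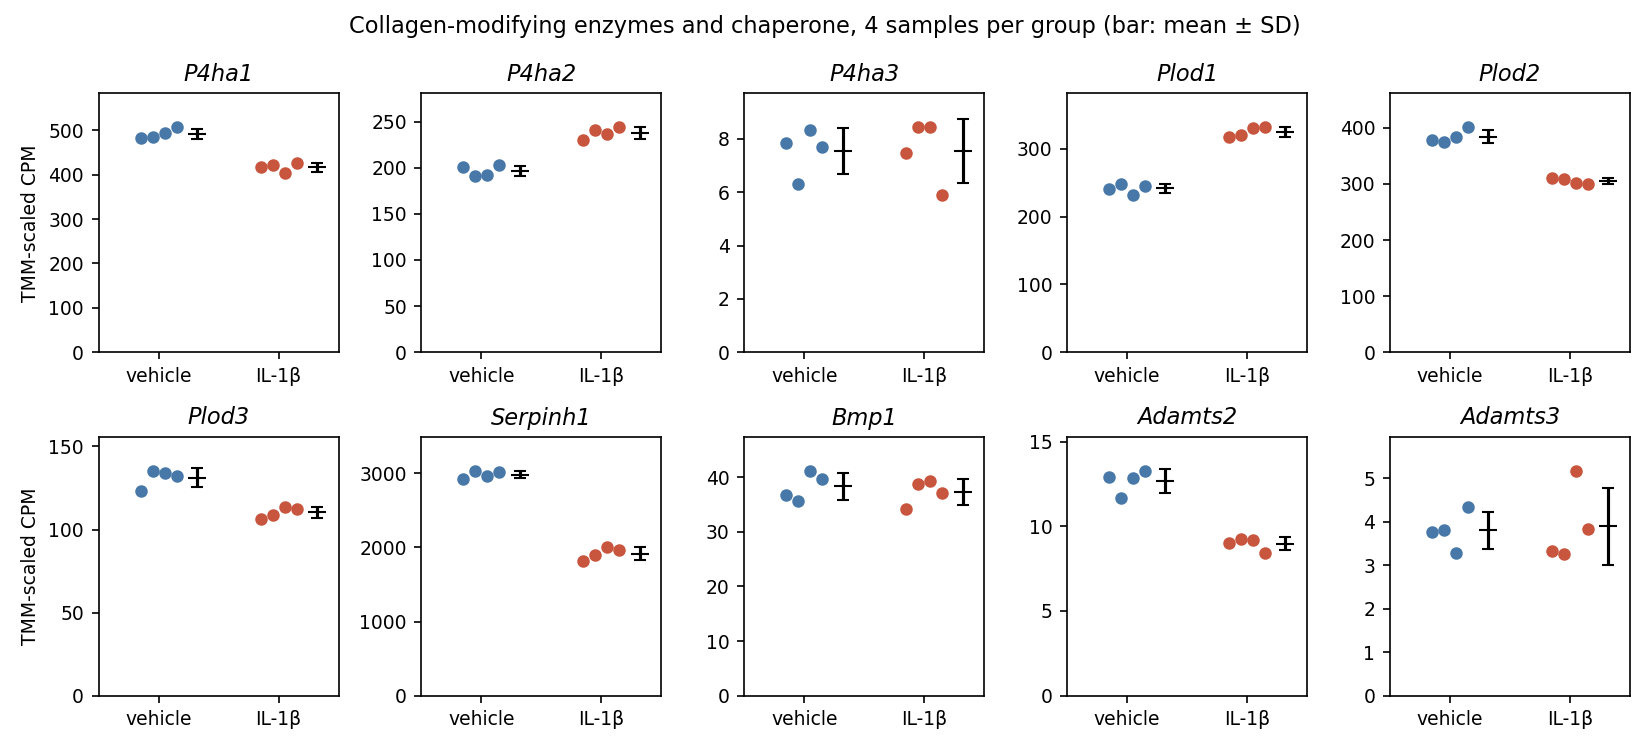
Abundance of the 10 genes in each sample, as TMM-scaled CPM on an axis from 0, with 4 vehicle samples (blue), 4 IL-1β samples (red) and the mean ± SD of each group (black). The groups are separate for 7 genes and overlap for *P4ha3*, *Bmp1* and *Adamts3*.

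Levels were compared between genes as CPM per kilobase of gene length. With vehicle, *Serpinh1* was the most abundant of the 10 at 1221 ± 20.8 CPM per kilobase (SD, n = 4). *P4ha1* followed at 119.5 ± 2.70, then *Plod2* at 71.3 ± 2.19, *Plod1* at 35.7 ± 1.01, *P4ha2* at 31.5 ± 0.907 and *Plod3* at 29.0 ± 1.23. The propeptidases and the third prolyl hydroxylase were far lower, *Bmp1* at 4.32 ± 0.284, *P4ha3* at 2.41 ± 0.280, *Adamts2* at 1.36 ± 0.0747 and *Adamts3* at 0.699 ± 0.0797 CPM per kilobase. No neighbours in this order overlapped among the vehicle samples. The order was the same after IL-1β, except that *Adamts2* and *Adamts3* then overlapped, at 0.961 ± 0.0395 and 0.717 ± 0.163 CPM per kilobase. In both groups *Serpinh1*, *P4ha1*, *P4ha2* and the 3 lysyl hydroxylases thus lay above all 3 propeptidases.

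*Serpinh1* (ENSMUSG00000070436.12, chromosome 7, 99345376 to 99353239, minus strand, GRCm38) encodes the procollagen chaperone and had the largest decrease of the 10 genes. Its abundance was 1810.3, 1892, 1998 and 1964 CPM in IL-1β replicates 1 to 4 and 2918, 3033, 2966 and 3010.5 CPM in vehicle replicates 1 to 4. Every IL-1β sample lay far below every vehicle sample, with a gap between the groups that was wider than the spread in either. Mean abundance fell from 2982 ± 50.9 CPM to 1916 ± 83.2 CPM (SD, n = 4), a log2 fold change of -0.64 (standard error 0.0284, edgeR adjusted p = 3.43e-17). An exact permutation test over the samples gave p = 0.0286 (two-sided), which is the smallest value that 4 samples against 4 allow and is shared by each of the 7 genes whose groups did not overlap.

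The prolyl 4-hydroxylase alpha subunits moved in opposite directions. *P4ha1* (ENSMUSG00000019916.14, chromosome 10, 59323296 to 59373304, plus strand) encodes the main catalytic subunit in most cells. It had 417, 422, 403 and 427 CPM with IL-1β, against 483, 484, 493 and 507 CPM in the vehicle samples. Each IL-1β sample was below all vehicle samples, and the log2 fold change was -0.24 (standard error 0.0310, edgeR adjusted p = 2.91e-07). *P4ha2* (ENSMUSG00000018906.14, chromosome 11, 54100095 to 54131665, plus strand), the alpha subunit known for its high share in cartilage, had 229.9, 240.3, 236 and 244 CPM with IL-1β, against 200.4, 191, 192 and 202 CPM in the vehicle samples. Here every IL-1β sample was above every vehicle sample, with a log2 fold change of 0.27 (standard error 0.0319, edgeR adjusted p = 3.77e-08). *P4ha3* (ENSMUSG00000051048.17, chromosome 7, 100285520 to 100319699, plus strand) rested on 83 to 142 reads a sample and had 5.89 to 8.44 CPM with IL-1β, against 6.30 to 8.34 CPM in the vehicle samples. Its groups overlapped fully, and the 95% interval of its log2 fold change was -0.24 to 0.26 (edgeR adjusted p = 0.944). The ends of this interval are about as far from 0 as the changes of *P4ha1* and *P4ha2*.

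The make-up of the alpha subunits differed between the groups, and their sum differed by less. *P4ha2* made up 26.2, 26.8, 27.3 and 27.0% of the summed CPM per kilobase of the 3 genes in the IL-1β samples and 21.1, 20.4, 20.1 and 20.5% in the vehicle samples. The mean share was 26.8 ± 0.475% against 20.5 ± 0.444% (SD, n = 4), a difference of 6.32 percentage points, and the share of *P4ha1* fell from 77.9 ± 0.475% to 71.5 ± 0.587%. For every 100 units of *P4ha1*, there were 37.6 ± 0.946 units of *P4ha2* with IL-1β and 26.4 ± 0.725 units with vehicle. The sum of the 3 alpha subunits was 142 ± 2.88 CPM per kilobase with IL-1β and 153 ± 3.34 with vehicle, a ratio of 0.924. *P4hb*, the shared beta subunit, also known as protein disulfide isomerase, was lower by a similar ratio (0.939, from 195.6 ± 1.52 to 184 ± 2.52 CPM per kilobase), and the alpha subunits per 100 units of *P4hb* overlapped between the groups (77.2 ± 1.49 with IL-1β, 78.5 ± 2.14 with vehicle). These shares and sums are built from the genes already tested and are given as descriptions.

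The lysyl hydroxylases also divided. *Plod1* (ENSMUSG00000019055.15, chromosome 4, 147909753 to 147936767, minus strand) encodes the enzyme that acts on lysines within the helix. It had 318, 319.6, 331 and 332 CPM with IL-1β, against 241, 248, 232 and 245 CPM in the vehicle samples, so that the lowest IL-1β sample stood well above the highest vehicle sample. Its log2 fold change of 0.43 (standard error 0.0320, edgeR adjusted p = 4.91e-12) was the largest rise of the 10 genes. *Plod2* (ENSMUSG00000032374.14, chromosome 9, 92542223 to 92608428, plus strand), whose product hydroxylates the lysines of the telopeptides at the ends of the helix, had 311, 309, 301 and 300.5 CPM with IL-1β, against 379, 374, 384 and 401 CPM in the vehicle samples. Again each IL-1β sample was lower, with a log2 fold change of -0.33 (standard error 0.0319, edgeR adjusted p = 9.46e-10). *Plod3* (ENSMUSG00000004846.10, chromosome 5, 136987019 to 136996648, plus strand) encodes an enzyme that both hydroxylates lysines and adds glucose to them. It had 106, 109, 113 and 113 CPM with IL-1β, against 123, 135, 134 and 132 CPM in the vehicle samples, and its log2 fold change was -0.25 (standard error 0.0352, edgeR adjusted p = 1.29e-06). Of the exon bases of *Plod3*, 11.9% overlap other annotated genes, nearly all *Znhit1* on the opposite strand, and 6.42% of those of *Plod2* overlap *Gm38391* on the opposite strand. Whether reads were assigned by strand is not given in the sources used here, so part of these counts may belong to the partner, and no other gene among the 10 shares exon bases with another annotated gene.

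Per kilobase of gene length, *Plod2* held more than *Plod1* and *Plod3* together with vehicle. Its share of the summed CPM per kilobase was 52.8, 51.0, 52.7 and 53.2% in the vehicle samples and 45.0, 44.5, 43.0 and 43.0% in the IL-1β samples. The share of *Plod1* was 26.3 ± 0.742% with vehicle and 37.2 ± 0.605% with IL-1β (SD, n = 4), a difference of 10.95 percentage points, and that of *Plod3* was 21.3 ± 0.765% and 18.9 ± 0.453%. For every 100 units of *Plod2* there were 84.9 ± 3.37 units of *Plod1* with IL-1β and 50.1 ± 2.15 with vehicle. The sum of the 3 genes was 129 ± 0.818 CPM per kilobase with IL-1β and 136 ± 2.82 with vehicle, a ratio of 0.949. The lead of *Plod2* over the other genes together depends on the division by length. In undivided CPM, vehicle replicate 2 had 374 for *Plod2*, which is less than 248 for *Plod1* and 135 for *Plod3* together.

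**Figure D2:**
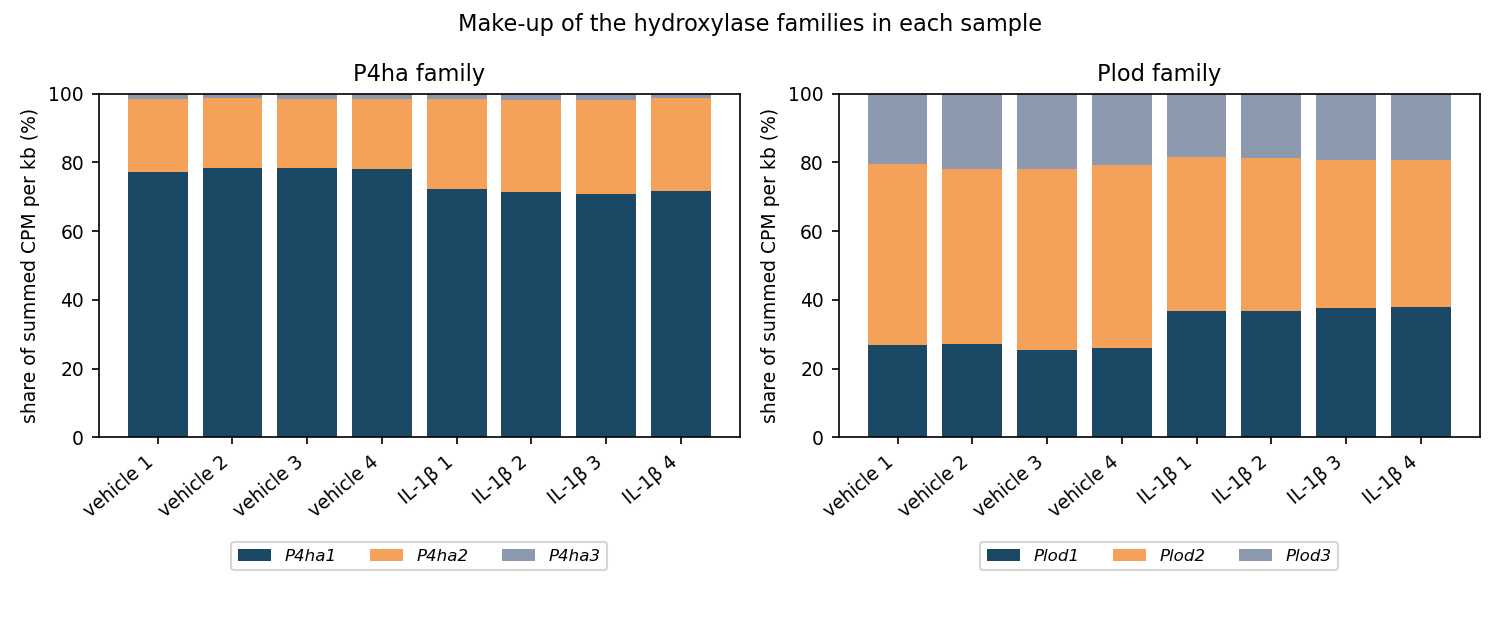
Share of each gene in the summed CPM per kilobase of its family (percent, stacked to 100), for the P4ha family (left) and the Plod family (right), with 1 bar for each of the 4 vehicle and 4 IL-1β samples. *P4ha2* rises from 20.5% to 26.8% on average and *Plod1* from 26.3% to 37.2%, with little variation within a group.

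Of the 3 propeptidases, only *Adamts2* passed the test. *Adamts2* (ENSMUSG00000036545.8, chromosome 11, 50602084 to 50807573, plus strand) encodes a procollagen N-proteinase. Its 100 to 224 reads a sample gave 9.01, 9.23, 9.21 and 8.44 CPM with IL-1β, against 12.9, 11.7, 12.8 and 13.3 CPM in the vehicle samples. The highest IL-1β sample was below the lowest vehicle sample, and the log2 fold change was -0.50 (standard error 0.0901, edgeR adjusted p = 4.81e-05). *Adamts3* (ENSMUSG00000043635.12, chromosome 5, 89677087 to 89883334, minus strand), a related N-proteinase, had 3.33, 3.25, 5.17 and 3.83 CPM with IL-1β, against 3.75, 3.81, 3.28 and 4.34 CPM in the vehicle samples. Its groups overlapped, IL-1β replicate 3 being the highest sample of all, and at 37 to 87 reads a sample the 95% interval of its log2 fold change was wide, -0.26 to 0.39 (edgeR adjusted p = 0.805). The share of *Adamts2* in the summed CPM per kilobase of this pair was 57.6 ± 5.22% with IL-1β and 66.1 ± 2.60% with vehicle (SD, n = 4). *Bmp1* (ENSMUSG00000022098.10, chromosome 14, 70474558 to 70520234, minus strand), the C-proteinase, had 34.1, 38.7, 39.3 and 37.0 CPM with IL-1β, against 36.7, 35.7, 41.1 and 39.6 CPM in the vehicle samples. Here the reads were many (378 to 661 a sample) and the interval narrow: its log2 fold change lay between -0.14 and 0.08 (edgeR adjusted p = 0.727).

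**Figure D3:**
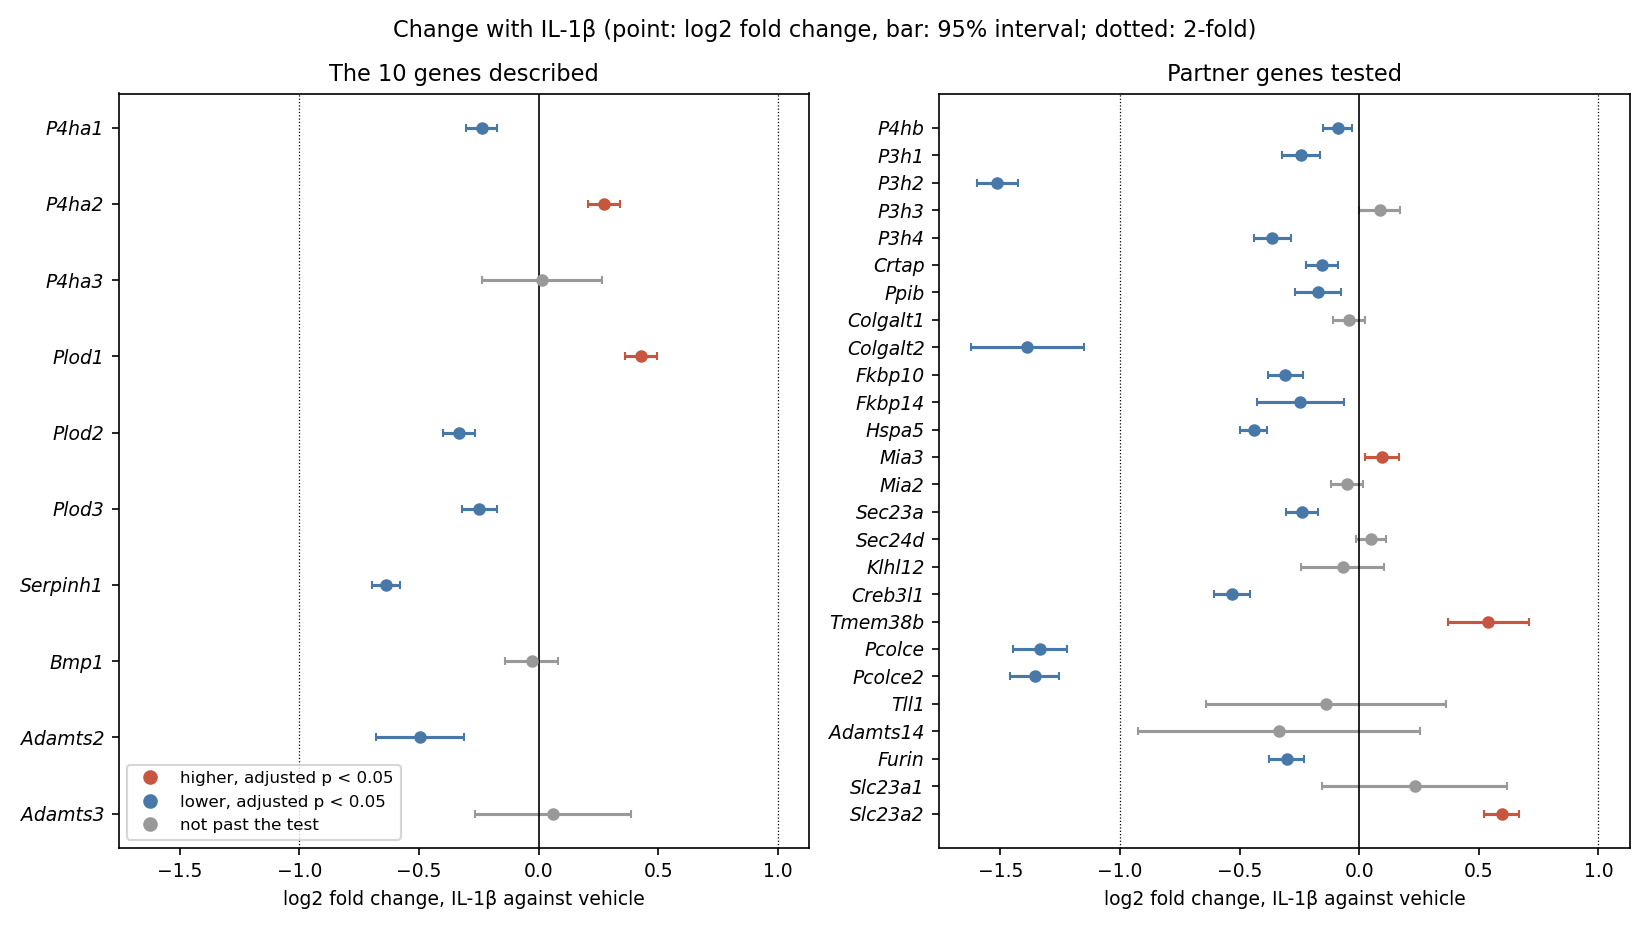
Log2 fold change with IL-1β against vehicle for the 10 genes (left) and the 26 partner genes that were tested (right). Points are edgeR estimates, bars are 95% intervals, dotted lines mark a 2-fold change, and color gives the direction where the adjusted p-value was under 0.05. None of the 10 genes reaches a dotted line, while *P3h2*, *Colgalt2*, *Pcolce* and *Pcolce2* lie beyond it on the left.

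Other genes of the same pathway were followed as a list of 27 partners chosen by function. Of these, 26 passed the filter on low counts, 15 fell, 3 rose and 8 did not pass the test. Over all genes tested, 19.8% fell and 20.4% rose. The median log2 fold change of the 26 was -0.21, and 4 of them were differentially expressed at the 2-fold threshold, all lower (2.35% of all genes tested were lower at that threshold). *Tll2*, a relative of *Bmp1*, held 0 to 3 reads a sample and was not tested.

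*Pcolce* and *Pcolce2* encode secreted enhancers that speed the removal of the C-propeptide by BMP1. *Pcolce* had 20.9, 22.4, 26.8 and 24.7 CPM with IL-1β, against 59.1, 61.6, 61.3 and 59.6 CPM in the vehicle samples (log2 fold change -1.34, standard error 0.0548, edgeR adjusted p = 4.71e-18). *Pcolce2* had 23.7, 22.7, 25.8 and 21.9 CPM with IL-1β, against 61.7, 58.6, 60.1 and 61.6 CPM in the vehicle samples (log2 fold change -1.36, standard error 0.0501, edgeR adjusted p = 3.8e-19). Both enhancers thus fell by more than 2-fold, while the 95% interval of *Bmp1* stayed within -0.14 and 0.08. *Furin*, a convertase that removes the prodomains of such proteinases, had a log2 fold change of -0.30 (edgeR adjusted p = 4.46e-08). *Tll1* and *Adamts14*, relatives of *Bmp1* and *Adamts2*, held 17 to 42 and 8 to 21 reads a sample and did not pass (edgeR adjusted p = 0.701 and 0.390).

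Around the hydroxylases, 6 of 7 partners fell and none rose, where 19.8% and 20.4% of all genes tested did. *P3h3* was the one that did not pass (log2 fold change 0.09, edgeR adjusted p = 0.110). *P3h2*, a prolyl 3-hydroxylase, fell from 136 ± 4.49 CPM to 47.6 ± 2.83 CPM (SD, n = 4), a log2 fold change of -1.51 (standard error 0.0413, edgeR adjusted p = 2.71e-22), and 28.4% of its exon bases overlap *Gm4524* on the opposite strand. *P3h1*, *Crtap* and *Ppib*, which form the complex that hydroxylates prolines at the 3 position, fell less, with log2 fold changes of -0.24, -0.16 and -0.17. Of the exon bases of *Ppib*, 25.0% overlap *Snx22* on the opposite strand. For *Colgalt1* and *Fkbp10*, named below, 11.4% overlap *Unc13a* and 6.58% *Nt5c3b*, also on the opposite strand. Among the other partners, *Sec23a* (8.9%), *Fkbp14* (5.01%) and *Furin* (1.29%) share exon bases with genes on the opposite strand. *Tmem38b* (3.13%) and *Pcolce* (2.93%) share exon bases with genes on the same strand. *P3h4*, which acts with lysyl hydroxylase 1, had a log2 fold change of -0.36, and *P4hb* one of -0.09 (edgeR adjusted p = 0.0129). *Colgalt2*, a galactosyltransferase of hydroxylysine, fell from 10.7 ± 1.12 to 4.10 ± 0.155 CPM (log2 fold change -1.39, standard error 0.115, edgeR adjusted p = 4.48e-11). Its more abundant relative *Colgalt1* averaged 151.5 ± 5.13 CPM after IL-1β, against 156 ± 6.21 CPM in the vehicle samples, and did not pass (edgeR adjusted p = 0.351). *Fkbp10*, a prolyl isomerase that works with lysyl hydroxylase 2, had a log2 fold change of -0.31 (edgeR adjusted p = 2.62e-08).

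In folding and export from the endoplasmic reticulum, 4 of 9 partners fell and 2 rose, where 19.8% and 20.4% of all genes tested did. *Hspa5*, the chaperone BiP, fell from 1366 ± 21.5 to 1006 ± 24.4 CPM (SD, n = 4), and *Creb3l1*, a transcription factor of the secretory pathway, from 164 ± 3.00 to 113 ± 7.34 CPM (log2 fold changes -0.44 and -0.53, edgeR adjusted p = 1.11e-13 and 6.25e-13). *Sec23a*, a coat protein of export vesicles, had a log2 fold change of -0.24 and *Fkbp14*, a prolyl isomerase, one of -0.25 (edgeR adjusted p = 6.17e-07 and 0.0287), that of *Fkbp14* losing the call under 4 of 16 other settings. *Tmem38b*, an ion channel of the endoplasmic reticulum, rose from 10.2 ± 0.517 to 14.8 ± 0.357 CPM (log2 fold change 0.54, edgeR adjusted p = 3.76e-06). *Mia3*, which loads collagen into vesicles, had a log2 fold change of 0.10 (edgeR adjusted p = 0.0257), a call that was lost under 5 of 16 other settings. *Mia2*, *Sec24d* and *Klhl12* did not pass. Of the transporters for ascorbate, the cofactor of the hydroxylases, *Slc23a2* rose from 81.6 ± 3.68 to 123 ± 1.57 CPM (log2 fold change 0.60, standard error 0.0358, edgeR adjusted p = 3.58e-14), and *Slc23a1*, at 32 to 47 reads a sample, did not pass.

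The genes were also set against the transcripts of their substrates. Of 11 fibrillar procollagen genes, 7 fell (19.8% of all genes tested) and 3 rose (20.4%) at an adjusted p-value under 0.05, and 6 fell by more than 2-fold (2.35%). Their median log2 fold change was -1.03, against -0.13 for the 10 genes described here. Summed as CPM per kilobase, the fibrillar procollagens fell from 1681 ± 22.4 to 583 ± 16.3 (SD, n = 4), a ratio of 0.347. *Col2a1* made up most of the sum with vehicle, and without it the sum fell from 470.2 ± 5.78 to 276 ± 3.70, a ratio of 0.586. *Col1a1* and *Col3a1* had log2 fold changes of -0.10 (edgeR adjusted p = 0.0761) and -0.34 (edgeR adjusted p = 7.01e-07).

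The summed procollagens fell to a ratio of 0.347, so any gene that fell by less comes out higher relative to them. This was so for each of the 10 genes. For every 100 units of fibrillar procollagen transcript, *Serpinh1* had 131, 134, 139.9 and 133 units in the IL-1β samples and 71.3, 73.7, 73.4 and 72.1 units in the vehicle samples, a ratio of 1.85. For *P4ha1* there were 17.4 ± 0.532 units with IL-1β and 7.11 ± 0.136 with vehicle, and for *P4ha2* 6.53 ± 0.0950 and 1.87 ± 0.0428. The largest ratio was that of *Plod1*, with 8.24 ± 0.116 units against 2.12 ± 0.0425 (ratio 3.88), followed by *P4ha2* (3.48), and the smallest was that of *Serpinh1*. Without *Col2a1* in the sum, the ratio was 1.10 for *Serpinh1*, 1.45 for *P4ha1*, 1.35 for *Plod2* and 2.29 for *Plod1*. The 10 ratios have the same denominator, which fell, and are no separate observations. Of all genes tested, 2.35% were lower at the 2-fold threshold, so nearly any gene would be higher by this measure.

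**Figure D4:**
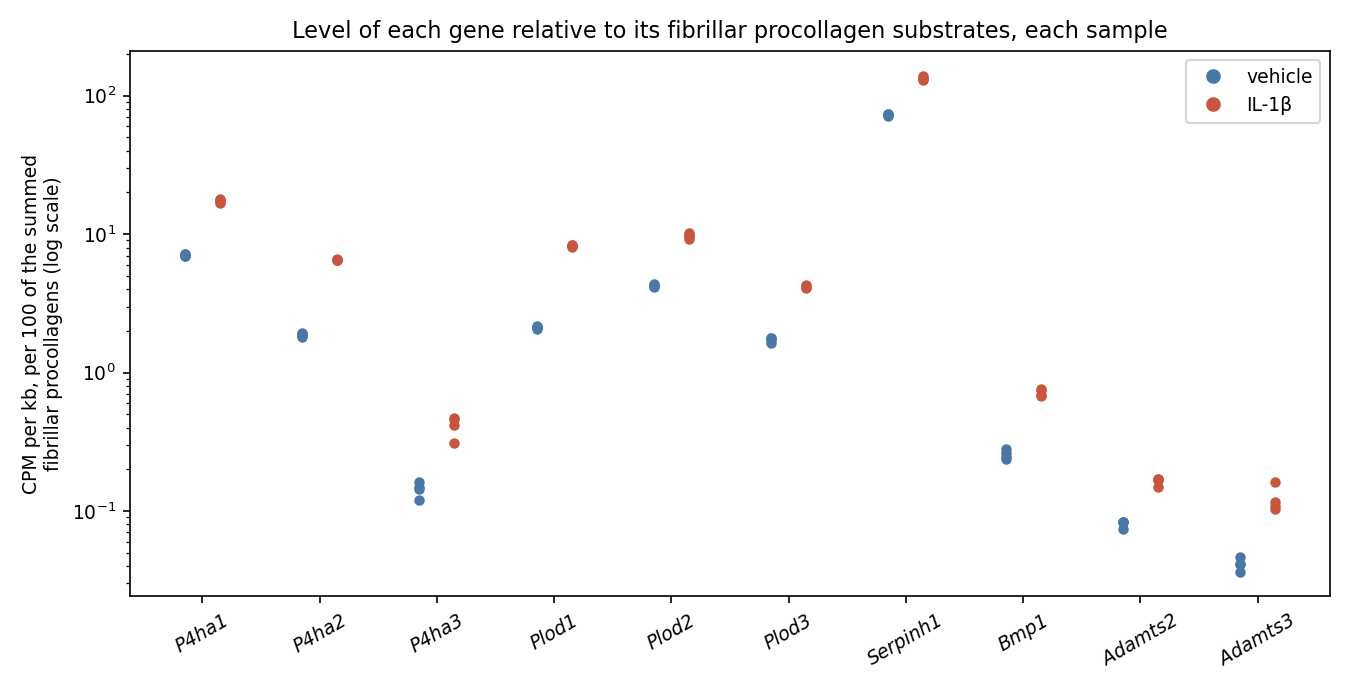
CPM per kilobase of each gene per 100 units of the summed fibrillar procollagens, on a log axis, with 1 point for each of the 4 vehicle samples (blue) and 4 IL-1β samples (red). In each gene the IL-1β points lie above the vehicle points, by a ratio of 1.85 for *Serpinh1* to 3.88 for *Plod1*. The shared denominator fell with IL-1β, so any gene that fell by less has a ratio above 1.

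Promoter sequences from RefSeq (GRCm38.p6, 250 bases before to 50 bases after the start) were matched for 8 of the 10 genes, and not for *Plod2* and *Bmp1*. The letters ACGTG, a form of the core of the element bound by hypoxia-inducible factors, were searched on both strands. These factors are known regulators of collagen hydroxylase genes, and other forms of the core were not searched. The letters ACGTG also occur within the E-box CACGTG. A match was found in 5 of the 8 promoters, those of *P4ha1*, *P4ha2*, *Plod3*, *Serpinh1* and *Adamts3*, and in 19.6% of 32851 promoters of the same length. The matches upstream of the start are shown to set the genes that moved in opposite directions side by side, each 5′ to 3′ on the strand of its gene, with the match in capitals (ACGTG, or CACGT where it lies on the other strand).
*P4ha1*, chr10:59323268-59323295: tgtgacagagcgCACGTagcgagggctg
*P4ha2*, chr11:54100834-54100861: tgtgcatcgcatACGTGcagcgcgtggc
*Plod3*, chr5:136986953-136986980: cttgaagtcattACGTGatgttcccttg
*Serpinh1*, chr7:99353395-99353422: accctgcttttcCACGTccaggaccgcg
*Adamts3*, chr5:89883542-89883569: gggccccgggtgACGTGggcgcgcggcg

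The match began 16 bases before the start of *P4ha1*, 78 bases before that of *P4ha2*, 54 before that of *Plod3*, 171 before that of *Serpinh1* and 223 before that of *Adamts3*, and *P4ha2* had a second match 11 bases after the start. The start that RefSeq gives for *P4ha2* lies inside the span given for the gene above. Genes with a match thus included *P4ha1*, *Plod3* and *Serpinh1*, which fell, *P4ha2*, which rose, and *Adamts3*, which did not pass the test. *Plod1* and *Adamts2*, which rose and fell, had no ACGTG in this window. The NF-κB consensus, searched on both strands, was found in the promoters of *P4ha1* and *Serpinh1* and in 8.46% of all promoters. The AP-1 site (TGACTCA or TGAGTCA), the heat shock element (GAANNTTCNNGAA or TTCNNGAANNTTC) and the endoplasmic reticulum stress element (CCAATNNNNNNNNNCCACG), also searched on both strands, were found in 0 of the 8 promoters and in 5.20%, 0.603% and 0.119% of all promoters. A match describes the letters in this window only.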

How the data were processed

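Total RNA of 8 samples was sequenced on an Illumina HiSeq4000. According to the methods and the submitters' processing notes, the authors used cutadapt for trimming, STAR (2.4.2a in the notes, another version in the methods) for alignment to mm10 with the vM20 annotation of GENCODE, and featureCounts for counting. The deposited table holds whole-number counts per gene symbol, unscaled between samples, beside a length per gene in bases (unit: other). The methods name a batch correction with RUVseq, and whether it preceded these counts is not stated. No column of values was left unused.

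TMM normalization (factors 0.984 to 1.01) was followed by the quasi-likelihood F-test of edgeR with Benjamini-Hochberg adjustment (edgeR 4.0.16, limma 3.58.1, DESeq2 1.42.0, R 4.3.3). The model held only the treatment, and 14404 genes entered, those reaching a CPM over 1 in 4 samples or more. Standard errors and 95% intervals refer to the log2 fold change and come from edgeR's F statistic. A differentially expressed gene has a log2 fold change beyond 1 and an adjusted p-value under 0.05. At these depths 3 counts are 0.172 to 0.273 CPM, which covers counting error only, since the reads carry no molecular identifiers. CPM per kilobase used the deposited lengths, which equal the exon length in GENCODE vM21 (GRCm38) for all 10 genes and for 25 of the 27 partners. Samples were grouped by their labels, which name no batch. The code was tested on simulated counts. Tables and figures were made with Python 3.11.15, pandas 2.3.3 and matplotlib 3.10.9.

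The genes and lists were chosen with earlier results of these data known. All 10 genes are named whatever their change, partner genes are named with their result, and of the fibrillar procollagens *Col2a1*, *Col1a1* and *Col3a1*. Alternatives were DESeq2, normalization by its size factors or by library totals, a stricter filter and no filter on low values, the replicate number as a block, 1 factor of unwanted variation, glmTreat, each sample left out, and shares without division by length. Fits without the row *Gm26917*, which takes 13.2 to 14.6% of the counts of each sample, were added after seeing the data.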

Additional observations from a re-analysis of the deposited data

Results flagged for a closer look

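In 3 of 78 groups of 4 values (the genes named, each with IL-1β and with vehicle), 1 sample lay further from the other 3 than Dixon's 95% critical value allows, where about 1 group in 20 (3.9 here) would do so by chance. None of the 3 was among the 10 genes described. For *Fkbp14*, vehicle replicate 4 held 14.4 CPM while the other vehicle samples ranged from 12.4 to 12.7 CPM. Without that sample, its log2 fold change was -0.20 (edgeR adjusted p = 0.101) and the call was lost. For *Tll1*, IL-1β replicate 2 stood at 2.74 CPM and the rest of its group between 1.489 and 1.604 CPM. For *Adamts14*, vehicle replicate 3 stood at 0.927 CPM and the rest between 1.21 and 1.25 CPM. Both genes rest on fewer than 50 reads a sample and did not pass the test.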

How the results depend on the processing

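The 10 genes gave 2 higher and 5 lower calls under each of the 16 other fits, and 0 of them were differentially expressed at the 2-fold threshold, also by glmTreat. Each of the 7 genes called kept its direction and its call in all 16, with log2 fold changes of -0.66 to -0.61 for *Serpinh1*, 0.41 to 0.44 for *Plod1*, 0.26 to 0.29 for *P4ha2*, -0.25 to -0.22 for *P4ha1*, -0.35 to -0.31 for *Plod2*, -0.28 to -0.23 for *Plod3* and -0.54 to -0.46 for *Adamts2*. The scalings moved the median of all genes by less than 0.1. Some genes that did not pass changed sign when single samples were left out, with log2 fold changes of -0.069 to 0.12 for *P4ha3*, -0.063 to 0.0093 for *Bmp1*, -0.13 to 0.15 for *Adamts3*, -0.10 to 0.0055 for *Klhl12* and -0.39 to 0.072 for *Tll1*. Over all genes, 751 were differentially expressed as reported, 1206 without the filter on low counts and 511 with a CPM above 1 required in all 8 samples. Without division by gene length, the difference in share was 7.64 percentage points for *P4ha2* and 11.96 for *Plod1*, by construction of the shares. The call of *Fkbp14* was lost with DESeq2 and without IL-1β replicate 1, IL-1β replicate 3 or vehicle replicate 4 (log2 fold change -0.20 to -0.25, adjusted p = 0.0614 to 0.101), and that of *Mia3* with DESeq2, without the filter, and without IL-1β replicate 4, vehicle replicate 1 or vehicle replicate 3 (0.08 to 0.10, adjusted p = 0.0605 to 0.111). *Col1a1* passed without IL-1β replicate 3 (-0.14, adjusted p = 0.00997) and with the replicate block (-0.10, adjusted p = 0.0283). The cause was not tested. The groups share only replicate numbers: deviations from the group means had correlations of -0.0699 to 0.0416 between samples of the same number, only 1 of 8 samples correlated best with its own number, and with the replicate block the 10 genes again gave 2 higher and 5 lower calls, with 2857 higher and 2786 lower among all genes. *Adamts3*, *P4ha3*, *Tll1* and *Adamts14* rest on 8 to 142 reads a sample. How far depth sets the width of their intervals was not tested, and single samples moved 2 of them: without IL-1β replicate 3 the log2 fold change of *Adamts3* was -0.13, and without IL-1β replicate 2 that of *Tll1* was -0.39.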
